A study of Homo sapiens with 96 samples.

Results

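Of the 4149 A-to-I editing sites listed for K562, 240 lay in transcripts that the authors' annotation matched to no known gene on the same strand: 166 sites of the element "Others", 60 antisense to an intron (1 of them written "Antisense of Intron") and 14 antisense to an exon of a known gene. The 240 sites were taken by these 3 element names, which the authors assigned. ADAR enzymes deaminate adenosine to inosine, which is read as G, and they act on double-stranded RNA. Such RNA forms where a transcript carries a sequence and its inverted copy, and editing is therefore often found as clusters of sites in non-coding RNA. Antisense RNA arises from the strand opposite a gene, and transcription often runs past the end of a gene or starts from a promoter in the reverse direction, which yields RNA outside annotated genes.

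K562 is a human chronic myeloid leukemia line that carries the BCR-ABL1 fusion. RNA of 96 samples was depleted of rRNA and sequenced in a strand-specific way. The samples comprised a 22-sample time course (DMSO, Etoposide, Imatinib or Romidepsin for 6 to 48 h), 19 samples given DMSO, Etoposide, SN-38, Talazoparib or Cyclophosphamide for 6 h and then Actinomycin D for 0 to 6 h, and 8 samples given DMSO or Etoposide for 6 h and then Alpha Amanitin for 0 to 6 h. A further 9 samples were washed for 0 to 6 h after DMSO, Etoposide or SN-38, 6 received DMSO for 3 h before DMSO, Etoposide, SN-38, Mirin or Talazoparib, and 4 received the kinase inhibitors AZ-20, KU-60019 and NU7441 together before Etoposide, SN-38, Mirin or Talazoparib. There were 11 samples with a single agent (Actinomycin D, Alpha Amanitin, DMSO, Rapamycin, Romidepsin or Torin1 for 2 to 6 h), 1 untreated sample, and 16 samples of 6 engineered K562 lines given Doxycycline or Water for 2 to 13 days (overexpression of AsiSI, Cas9 or LINE, or shRNA knockdown of CSB, LIG3 or MRE11A). Etoposide and SN-38 poison topoisomerases, Actinomycin D and Alpha Amanitin block transcription. Only 3 of the 93 conditions had more than 1 sample. Nothing in the labels states that samples came from separate cultures, so p-values measure the spread between these samples. The list holds no expression values, so the identity of the cells could not be checked against markers here.

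Levels are fractions between 0 and 1 (the share of reads with the edited base), and a site counted as found in a sample with a level above 0. No read counts were given, so the depth behind each level is unknown. The number of listed sites found ranged from 30 to 633 per sample. A level existed for 234 of the 240 sites, since 6 were entered from Sanger sequencing only, and 228 of these turned up in 1 or more of the 96 samples.

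The largest group of sites lay upstream of BCR, the gene whose breakpoint gives the fusion. On the minus strand, 24 sites (10 percent of the 240) lay 174 to 824 bases upstream of the annotated BCR start, which is on the plus strand. They formed a cluster of 15 sites at chr22:23179325-23179530 and a cluster of 9 sites at chr22:23178880-23178971 (GRCh38). The clusters were not independent in sequence: each held sites in stretches that were the reverse complement of stretches in the other, and 21 of the 24 sites lay in these arms. The outer arms matched at 47 of 50 bases and the inner arms at 74 of 85. They are shown 5′ to 3′ on the RNA strand with each listed edited adenosine in capitals, since the sites fall in both strands of the duplex that the arms could form.
BCR outer 5′ arm, chr22:23179425-23179474, minus strand: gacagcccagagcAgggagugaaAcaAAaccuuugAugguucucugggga
BCR outer 3′ arm, chr22:23178849-23178898, minus strand: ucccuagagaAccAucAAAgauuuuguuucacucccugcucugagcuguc
BCR inner 5′ arm, chr22:23179307-23179391, minus strand: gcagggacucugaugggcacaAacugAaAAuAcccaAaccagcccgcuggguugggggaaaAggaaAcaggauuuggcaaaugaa
BCR inner 3′ arm, chr22:23178927-23179011, minus strand: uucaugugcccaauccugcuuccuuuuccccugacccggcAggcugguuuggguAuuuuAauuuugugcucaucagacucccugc

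In the outer 5′ arm, 3 of 5 sites lay within 5 bases of the position facing a listed site of the other arm, and in the inner 5′ arm 5 of 8 did. The base before these 24 sites was A in 12, C in 5, U in 4 and G in 3. The plot of the sites upstream of BCR shows both clusters with the arms.

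**Figure D1:**
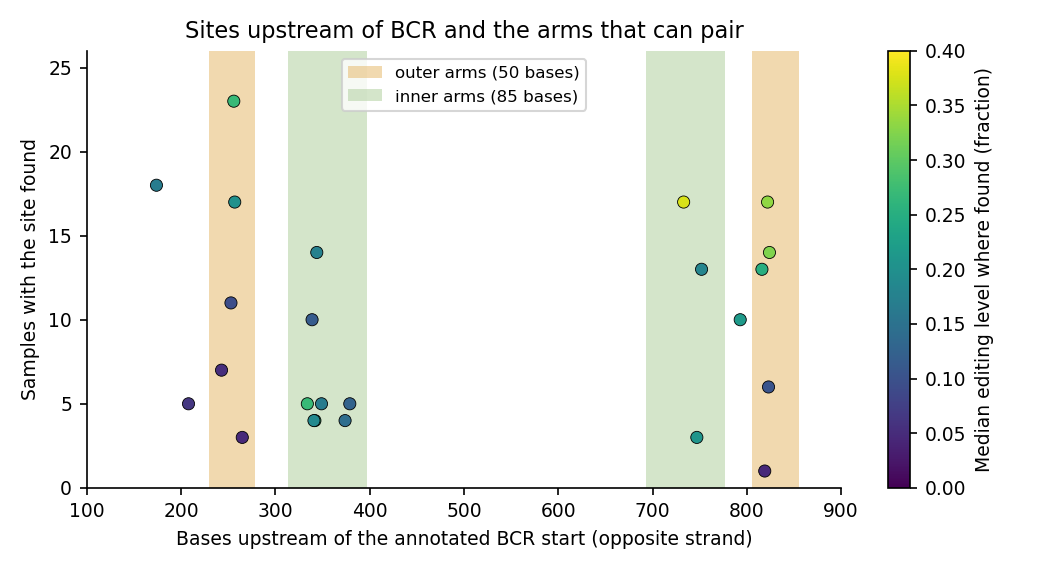
Each point is 1 of the 24 sites upstream of BCR, by its distance from the annotated BCR start in bases (x axis) and the number of the 96 samples in which it was found (y axis), coloured by its median level where found. Shaded bands mark the outer and inner arms that are reverse complements of each other; 21 of the 24 points fall in a band.

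The same arrangement was seen at PDE5A and downstream of MYLIP. PDE5A encodes a phosphodiesterase that degrades cGMP, and 9 sites lay antisense to its introns in clusters of 4 (chr4:119501911-119501949) and 5 (chr4:119502183-119502216) on the plus strand. All 9 sites fell in arms that matched at 65 of 68 bases with 211 bases between them. A lncRNA gene of GENCODE release 44, ENSG00000291203, covers them on the same strand. Past the end of MYLIP, which encodes a ubiquitin ligase for the LDL receptor, 6 sites lay 13272 to 14230 bases downstream on the same strand, and 4 of them fell in arms that matched at 28 of 30 bases. At TRIM11, a ubiquitin ligase gene, 5 of 7 sites 213 to 1087 bases past the gene end fell in arms matching at 88 of 103 bases. The arms are shown for these genes because sites stood on both sides of each.
PDE5A antisense 5′ arm, chr4:119501899-119501966, plus strand: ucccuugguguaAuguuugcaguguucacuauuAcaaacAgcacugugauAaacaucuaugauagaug
PDE5A antisense 3′ arm, chr4:119502178-119502245, plus strand: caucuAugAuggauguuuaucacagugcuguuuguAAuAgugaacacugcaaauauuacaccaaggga
MYLIP downstream 5′ arm, chr6:16161525-16161554, plus strand: auuAgagcccAguuaaacuugagaugaaaa
MYLIP downstream 3′ arm, chr6:16162427-16162456, plus strand: uuuucaucucAgguuuaacuAggcucuaau
TRIM11 downstream 5′ arm, chr1:228393300-228393402, minus strand: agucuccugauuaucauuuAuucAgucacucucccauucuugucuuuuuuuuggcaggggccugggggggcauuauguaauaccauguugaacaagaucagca
TRIM11 downstream 3′ arm, chr1:228392564-228392666, minus strand: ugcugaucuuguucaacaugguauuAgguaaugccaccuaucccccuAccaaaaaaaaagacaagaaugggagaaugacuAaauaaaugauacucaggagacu

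Over all 240 sites, 127 (52.9 percent, Wilson 95% interval 46.6 to 59.1) lay in an ungapped reverse-complement stretch within 1000 bases, scored at +1 per match and -2 per mismatch with at least 16 points. The other 3909 listed sites had such a stretch at 41.1 percent (39.6 to 42.7), vlincRNA sites (very long intergenic non-coding RNA) at 42.7 percent (37.7 to 47.8) and lncRNA intron sites at 48.4 percent (41.5 to 55.5). Sites of 1 duplex are not independent, and these intervals cover counting error only. For 77 of the 240 sites the duplex held listed sites in both arms. The share depended on the window: 52 sites had a stretch within 500 bases and 166 within 2000 bases. The comparison with the other classes is given for 1000 bases only. It includes the BCR locus: a stretch was present at 28 of 33 sites upstream of a coding gene of the other strand, and 24 of these 33 were the sites upstream of BCR. No share was taken without them. Among the 14 exon antisense sites, 2 had a stretch within 1000 bases. The base before the site was U in 110 of the 240 (45.8 percent, 39.6 to 52.2), A in 83, C in 38 and G in 9, and U stood before 49.2 percent (47.7 to 50.8) of the other listed sites.

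The positions of the 240 sites relative to protein-coding genes fell into 4 kinds. On the same strand, 115 sites lay within 10000 bases past the end of a coding gene, at a median of 2283 bases and between 88 and 9998 bases. A further 33 lay within 5000 bases upstream of a coding gene of the other strand, 36 lay inside a gene of GENCODE release 44 on their own strand, and 56 lay elsewhere. The element names therefore did not hold in that release for these 36 sites, of which 25 were antisense sites. Since the element names already set aside known transcripts on the same strand, that most sites lay outside genes is not a finding. Distance from gene ends was not part of the rule. Of the 204 sites outside genes, 56.4 percent (49.5 to 63.0) lay within 10000 bases past a coding gene end, against 3.9 percent (1.8 to 8.3) of 152 vlincRNA sites outside genes. vlincRNAs are defined as intergenic and long, so part of that difference is set by the element names. Among the 74 antisense sites, 38 also lay past the end of a coding gene of their own strand.

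**Figure D2:**
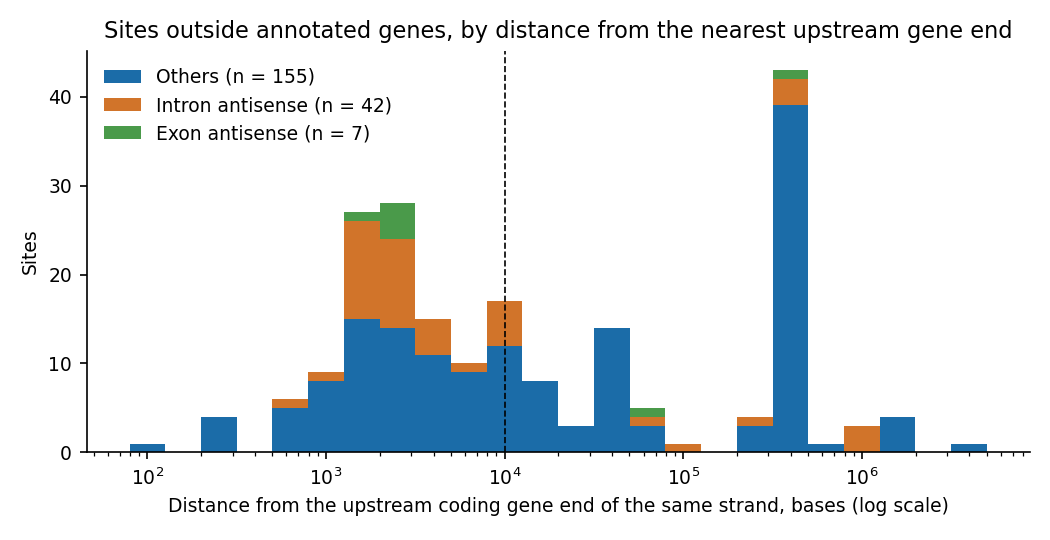
Number of sites outside annotated genes (y axis) by distance from the nearest upstream end of a coding gene of the same strand (x axis, log scale), stacked by element name. The dashed line marks 10000 bases, and the tallest bar includes the 24 sites upstream of BCR and the 12 past KIF25.

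The 115 sites followed 51 coding genes, and 5 of these genes held a listed site inside the gene. The share over all coding genes was not taken, so whether this count is low or high is not known. TRIM11 had 7 sites past its end, found in 19 samples. RBM19, which acts in ribosomal RNA processing, had 6 sites 3278 to 3712 bases past its end, found in 20 samples. SMAP2, an ARF GTPase activator gene, had 5 sites 8590 to 9614 bases past its end, and SPCS2, a signal peptidase subunit, had 4 sites 2311 to 3235 bases past its end. In these cases no gene lay on the opposite strand at the sites. Farther out, 12 sites lay 373976 to 375362 bases past KIF25, a kinesin gene. The nearest upstream coding gene of the 24 sites upstream of BCR was IGLL1, 393595 to 394245 bases away.

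Several antisense sites lay where a neighbouring gene ends inside or beside another gene of the opposite strand. All 7 sites antisense to introns of ANKRD42, an ankyrin repeat gene, lay 1633 to 2289 bases past the end of CCDC90B, and they were found in 7 samples. All 6 sites antisense to TBC1D8 lay 1912 to 2087 bases past the end of RPL31, a ribosomal protein gene, and were found in 5 samples. HYLS1, a ciliogenesis gene, had 5 antisense sites 1242 to 2317 bases past PUS3, a pseudouridine synthase gene. PHKG1, a phosphorylase kinase subunit, had 4 antisense sites 2505 to 3301 bases past SUMF2, 2 of them against an exon. The 8 sites antisense to DDTL lay 1114 to 1273 bases past DDT, a tautomerase gene, inside the annotated lncRNA gene ENSG00000290199. ZNF20, a zinc finger gene, had 8 antisense sites, 7 of them against an exon, all inside the lncRNA gene ENSG00000290812. PDE5A had the most antisense sites, 9.

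Apart from BCR, 6 coding genes had sites within 5000 bases upstream on the other strand. SLC25A53, a mitochondrial carrier gene, had 4 sites 755 to 1596 bases upstream of its start. TRIM33, ZBTB2, LETM1, LMBR1 and EBLN2 had 1 each. No listed vlincRNA site outside genes lay within 5000 bases of such a start.

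Joined at 100 bases, the 240 sites formed 125 clusters, of which 72 were lone sites and 6 held 5 or more sites. These 6 were both BCR clusters, the cluster antisense to DDTL (8 sites, chr22:23969269-23969428, minus strand), the cluster past KIF25 (6 sites, chr6:168420226-168420453, plus strand), the cluster past RBM19 (5 sites, chr12:113813026-113813102, minus strand) and the cluster of 5 antisense to PDE5A. The share of sites in clusters of 5 or more was 20 percent (15.4 to 25.5), and it was 32.7 percent (31.2 to 34.2) for the other listed sites. Chromosome 22 held 40 of the 240 sites, or 16.7 percent, against 2.75 percent of the whole list. Chromosome 1 held 29, or 12.1 percent, against 10.3 percent of the list. Annotated sites, known before from editing databases, made up 202 of the 240. All 14 exon antisense sites, 56 of 60 intron antisense sites and 132 of 166 sites of the element "Others" were annotated, while the 6 clustered sites past KIF25 were all unannotated. Of the other 3909 listed sites, 2958 were annotated. These shares partly follow from the authors' filter. Outside introns and vlincRNAs, it kept unannotated sites from the callers only if SPRINT also detected them.

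Recurrence was low, as it was in the rest of the list. The median number of samples per site was 3 of 96, with a maximum of 58. The median was also 3 for the other listed sites (maximum 95) and for lncRNA intron sites, and it was 2 for vlincRNA sites. Of those among the 240 sites with a level, 29 appeared in 1 sample and 29 in 10 or more. Per sample, 5.06 percent of these sites and 5.94 percent of the other listed sites were found on average, a difference of -0.880 percentage points ± 4.63 (SD, n = 96). This difference did not pass the threshold (permutation test of signs over samples, two-sided, 100000 resamples, p = 0.0668, adjusted p = 0.0668 over 5 comparisons), although the share was lower in 63 of 96 samples. With annotated sites only, with sites detected by at least 2 methods only or without the 24 sites upstream of BCR, the difference was -1.31, -1.50 and -1.44 percentage points and passed the threshold (permutation p = 0.0112, 0.0102 and 0.000460).

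The most recurrent site lay antisense to an intron of PIAS2, a SUMO ligase gene, at chr18:46813439 on the plus strand, with no same-strand coding gene end nearby. It was found in 58 samples with a level from 0.158 to 0.857 and a median of 0.500. It was found in 18 of 22 time course samples, in 15 of 19 samples with Actinomycin D after another agent, in 5 of 16 samples of engineered lines and in 2 of 8 samples with Alpha Amanitin after another agent. The site antisense to an exon of PPP4R2, a protein phosphatase subunit, at chr3:73061025 on the minus strand was found in 32 samples with a level from 0.0100 to 0.268 and a median of 0.0300. Its level was at the bottom of the range, and it was found in 0 of 16 samples of engineered lines. Both lacked a reverse-complement stretch within 1000 bases. The same was true of chr10:103448951 (plus strand), antisense to an intron of the calcium channel family gene CALHM2 and 2657 bases past the end of PDCD11, found in 31 samples with levels from 0.176 to 0.818 and a median of 0.386. It was also true of chr15:28857313 (plus strand) in the lncRNA gene ENSG00000291258, found in 31 samples with levels from 0.110 to 0.750 and a median of 0.230. Their surroundings are shown, with the edited adenosine in capitals, because these sites recurred most and no pairing arm was found for them.
PIAS2 antisense, chr18:46813439, plus strand: aagccaaaagcauuAuaucaguauagaau
PPP4R2 antisense, chr3:73061025, minus strand: cuaacaaccaucacAuucugcaauaacaa
CALHM2 antisense, chr10:103448951, plus strand: aagggacuccccuuAggucagcaacacuu
ENSG00000291258, chr15:28857313, plus strand: agcgcagaaccagaAauuaacacguggga

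**Figure D3:**
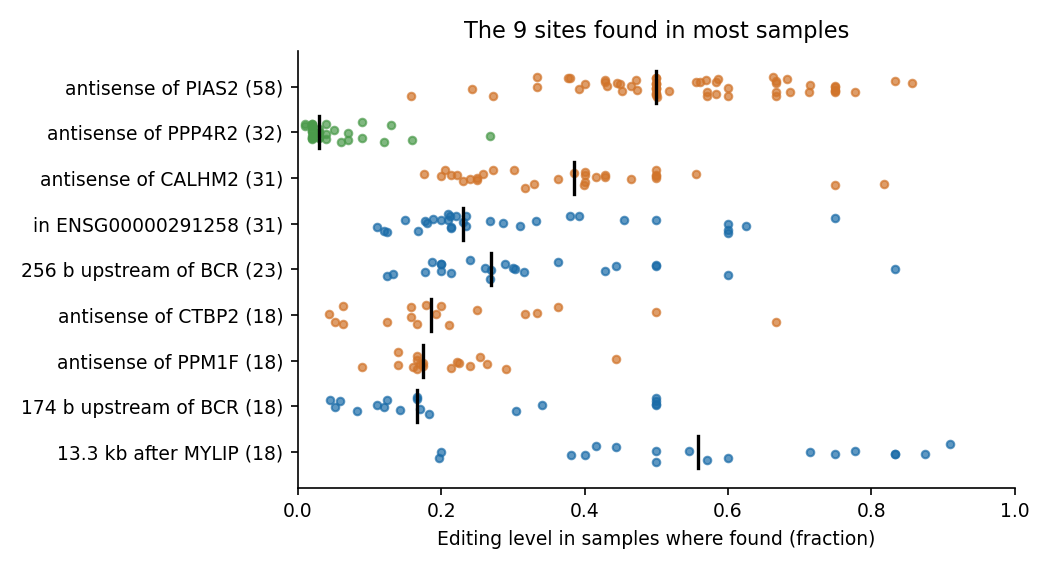
Editing level (x axis, fraction) of the 9 sites found in most samples, with 1 point per sample where the site was found, the median as a black bar and the number of samples in brackets. The site antisense to PPP4R2 sits near 0.0300, the site antisense to PIAS2 spreads from 0.158 to 0.857.

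The next sites by recurrence differed in spread. The site antisense to PPM1F, a protein phosphatase gene, at chr22:21929703 was found in 18 samples with a level from 0.0900 to 0.444 and a median of 0.175. The unannotated site antisense to the corepressor gene CTBP2 at chr10:125045433 was found in 18 samples with a level from 0.0435 to 0.667 and a median of 0.186. Among the sites found in at least 10 samples, the highest median levels were those of chr6:16161528 past MYLIP (0.558, 18 samples), chr7:32923026 in the pseudogene RP9P (0.528, 10 samples) and the PIAS2 antisense site. The lowest were those of the PPP4R2 antisense site and 2 sites upstream of BCR, chr22:23179451 (0.0952, 11 samples) and chr22:23179365 (0.115, 10 samples). Among exon antisense sites, chr7:56083175 against PHKG1 was found in 6 samples (levels from 0.179 to 0.500, median 0.323). Its neighbour in rank, chr19:12131974 against ZNF20, was found in 4 samples (levels from 0.300 to 0.571, median 0.472). The median of the PPP4R2 antisense site lay below the lowest level of the sites antisense to PIAS2, CALHM2 and CTBP2, while the level ranges of the other sites named here overlapped.

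Within the cluster upstream of BCR, recurrence and level differed between neighbouring adenosines. The site chr22:23179448 was found in 23 samples (levels from 0.125 to 0.833, median 0.269), while chr22:23179439, 9 bases away, was found in 3 samples, at 0.0385, 0.0455 and 0.500. The site chr22:23178971 in the inner 3′ arm had the highest median of the 24, 0.375 over 17 samples (0.170 to 0.859). Medians of the 24 sites ranged from 0.0455 to 0.375.
In the cluster antisense to DDTL, 7 of 8 sites were found, in 5 samples in all: the untreated sample, both DMSO samples of 2 h, Alpha Amanitin for 2 h, and DMSO followed by Alpha Amanitin for 4 h. Its most recurrent site, chr22:23969356, had levels of 0.172, 0.322, 0.143, 0.250 and 0.10 in these samples in that order. Its last site, chr22:23969428, was found at 0.400 in the untreated sample and at 0.667 in the first DMSO sample of 2 h. All of these samples were free of Etoposide and SN-38, a pattern that was not tested.
The 6 clustered sites past KIF25 were each found in 1 or 2 samples, all of which had received Etoposide or SN-38 for 6 h. This pattern was not tested, and it is given for the clustered sites only. All 12 sites past KIF25 together were found in 14 samples, with at most 6 samples per site. The list required detection in 2 or more of all 130 samples and a level above 0.2, so the samples that hold these sites also helped to list them. For example, chr6:168420277 was found at 0.667 and 0.464 after Etoposide followed by Alpha Amanitin for 2 h and 4 h, and chr6:168420371 at 0.500 after Etoposide followed by Actinomycin D for 1 h and at 0.667 after Etoposide followed by Alpha Amanitin for 4 h.
In the cluster past RBM19, chr12:113813027 was found in 15 samples (levels from 0.333 to 0.800, median 0.500) and chr12:113813088 in 1 sample, at 0.333. In the cluster of 5 antisense to PDE5A, chr4:119502216 was found in 13 samples (levels from 0.0900 to 0.667, median 0.334) and chr4:119502213 in 5 samples with a median of 0.143.

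The 6 sites entered from Sanger sequencing only have no level. Among them, 4 sites lay within a span of 15 bases, 1745 to 1759 bases past the end of CHD1L, a chromatin remodeller gene. These were chr1:147297510, chr1:147297511, chr1:147297514 and chr1:147297524 (plus strand), opposite the lncRNA gene LINC00624. The others were chr19:40309645 (minus strand) past C19orf47 and chr3:18250850 (plus strand) antisense to TBC1D5.

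By position, the 33 sites upstream of a coding gene of the other strand were found in a median of 5 samples with a median level of 0.20. These values are mostly those of the BCR locus, with 24 of the 33 sites: the other 9 had a median level of 0.50 in a median of 3 samples, with site medians from 0.0300 to 0.770. The 115 sites past gene ends were found in a median of 3 samples with a median level of 0.429. The 56 sites elsewhere had a median level of 0.500 and the 36 inside genes 0.273. By the base before the site, median levels were 0.466 after U, 0.338 after A, 0.363 after C and 0.175 after G. These are descriptions over sites, which share transcripts and samples.

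In level, the 240 sites stood below lncRNA intron and vlincRNA sites, while the difference from the whole rest of the list depended on the settings. In the 64 samples with at least 3 sites of each, their median level averaged 0.364 and that of lncRNA intron sites 0.462, a difference of -0.0976 ± 0.162 (SD, n = 64), lower in 47 samples (permutation test of signs over samples, p = 3.0e-05, adjusted p = 0.00015). Against vlincRNA sites the averages were 0.378 and 0.428, a difference of -0.0508 ± 0.171 (SD, n = 73), lower in 39 samples (permutation p = 0.0128, adjusted p = 0.0214). Against the rest of the list they were 0.381 and 0.348, a difference of 0.0331 ± 0.122 (SD, n = 78), higher in 45 samples (permutation p = 0.0187, adjusted p = 0.0234). This last call was lost with means in place of medians (0.0204, permutation p = 0.0514), with 1 site per cluster (0.0148, permutation p = 0.388) and with levels above 0.1 only (0.0101, permutation p = 0.430). It was larger with annotated sites only (0.0475, permutation p = 0.00139) and without the sites upstream of BCR (0.0630, permutation p = 3.0e-05). The comparisons with lncRNA intron and vlincRNA sites, and that of Others with intron antisense sites, were not run without the sites upstream of BCR. Sites of the element "Others" stood above intron antisense sites, at 0.424 and 0.362 on average, a difference of 0.0619 ± 0.172 (SD, n = 61), higher in 39 samples (permutation p = 0.00663, adjusted p = 0.0166).

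The number of the 240 sites found per sample ranged from 0 to 45 with a median of 8, and their share of all listed sites found in a sample ranged from 0 to 22.6 percent with a median of 3.84 percent. The share was highest in the set with Alpha Amanitin for 0 to 6 h after another agent (11 to 45 sites, median share 12.5 percent). The highest single share, 22.6 percent, was in the Etoposide sample at 0 h of Alpha Amanitin, and the DMSO sample at 0 h had 3.78 percent. In the engineered lines 0 to 6 sites were found, and 3 of these 16 samples had at least 3. The share is relative: it also moves when other listed sites are found more or less often, and fewer transcripts cannot be told apart from less editing.

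**Figure D4:**
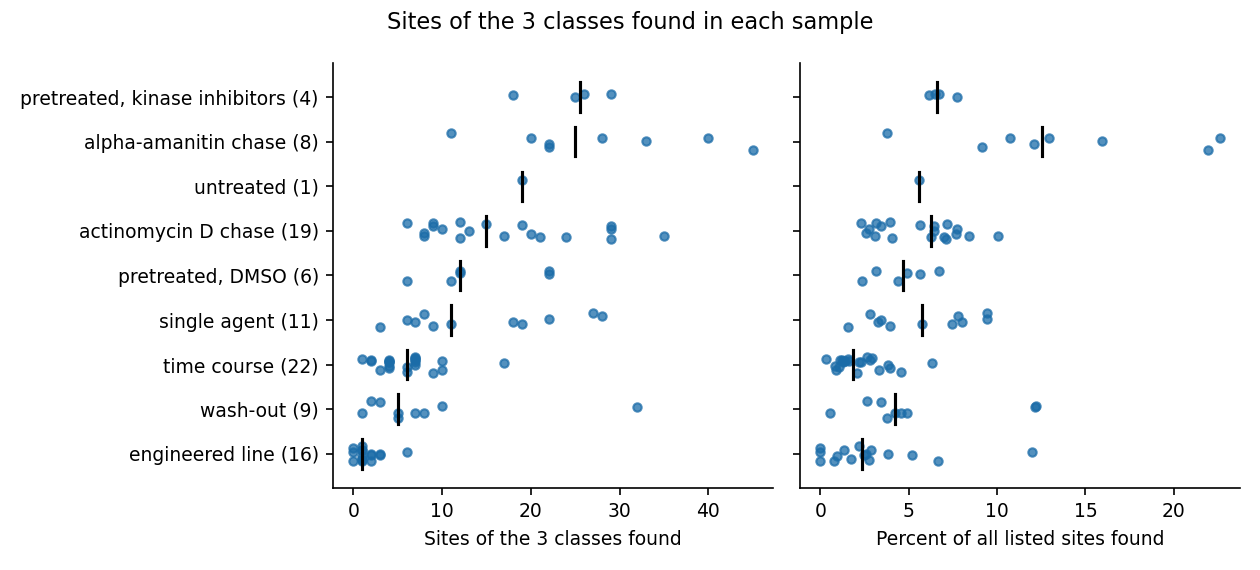
Number of the 240 sites found in each sample (left) and their percent of all listed sites found in it (right), by set of samples, with 1 point per sample, the median as a black bar and the number of samples in brackets. Chase marks Actinomycin D or Alpha Amanitin given after another agent. The set with Alpha Amanitin for 0 to 6 h after another agent reaches 45 sites (Etoposide, 4 h) and 22.6 percent (Etoposide, 0 h). The engineered lines hold 0 to 6 sites.

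In the Actinomycin D, Alpha Amanitin, wash-out and DMSO-pretreated sets, Etoposide samples held a larger share of these sites on average than their DMSO pairs. Etoposide or DMSO was given for 6 h, in most pairs before Actinomycin D, Alpha Amanitin or a wash. The time course was left out because names of its Etoposide samples conflict between records. Pairs at successive times of the same set each counted as a separate unit. The share was 10.5 percent on average with Etoposide and 5.65 percent with DMSO, a difference of 4.81 percentage points ± 6.15 (SD, n = 13 pairs), higher in 9 pairs (exact permutation test of signs, p = 0.00952, adjusted p = 0.0349 over 11 comparisons of conditions). The mean difference was 8.98 points in the 4 Alpha Amanitin pairs, 3.44 points in the 5 Actinomycin D pairs and 2.74 points in the 3 wash-out pairs, where 1 pair was higher, and it was 1.26 points in the pair that had DMSO beforehand. With 1 site per cluster the difference was 3.02 points and no longer passed (exact permutation p = 0.226), and without the sites upstream of BCR it was 3.07 points (exact permutation p = 0.0188). SN-38 was compared with the same DMSO samples in 7 of the pairs and differed by 2.17 points ± 4.56 (SD, n = 7 pairs), which did not pass (exact permutation p = 0.266, adjusted p = 0.562). Without the pair at the start of the wash-out it was 0.601 points, and without the sites upstream of BCR 0.727 points.

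The sites upstream of BCR were found in 45 samples, and at least 5 of the 24 were found in 18 samples. Of these 18, 8 had received Etoposide, 2 SN-38 and 4 DMSO, as the first or only agent. In the time course, 0 were found in each Etoposide sample from 6 h to 48 h. In the samples given DMSO beforehand, 2 were found with Etoposide for 6 h, 4 with SN-38 and 1 with DMSO. At the start of the Actinomycin D treatment 11 were found after Etoposide, 4 after SN-38 and 0 after DMSO. At the start of the Alpha Amanitin treatment 12 were found after Etoposide and 1 after DMSO, and at the start of the wash-out 8 after Etoposide, 11 after SN-38 and 0 after DMSO. Later under Actinomycin D, 13, 7, 6 and 1 were found after Etoposide and 1, 0, 0 and 0 after DMSO at 1 h, 2 h, 4 h and 6 h. Under Alpha Amanitin 15 against 7 were found at 4 h, but the order turned at 2 h (13 after Etoposide and 15 after DMSO) and at 6 h (1 and 12). In the wash-out at 2 h and 6 h none was found after Etoposide or DMSO. After SN-38, 15 and 0 of the sites upstream of BCR were found at 2 h and 6 h of Actinomycin D, and 0 and 2 at 2 h and 6 h of the wash-out. They were also found without either drug, 13 of them with Actinomycin D alone for 2 h, 5 and 7 with Alpha Amanitin alone for 2 h and 6 h, and 9 and 2 in both DMSO samples of 2 h, so samples of the same condition differed widely.
Sites past gene ends were found more often after Etoposide in each Alpha Amanitin pair, at 14 against 3 sites at the start, 13 against 3 at 2 h, 19 against 1 at 4 h and 15 against 8 at 6 h. In the Actinomycin D pairs there were 3 against 5 at the start, 5 against 3 at 1 h, 12 against 5 at 2 h, 16 against 5 at 4 h and 9 against 7 at 6 h. The wash-out pairs did not follow, with 2 against 0 at the start, 1 against 3 at 2 h and 3 against 3 at 6 h, and the pair that had DMSO beforehand held 14 against 6. These counts were not tested.
All listed sites found numbered 177 and 291 in the Etoposide and DMSO samples at the start of Alpha Amanitin and 205 and 186 at 4 h, so the larger counts after Etoposide did not always go with more listed sites.

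**Figure D5:**
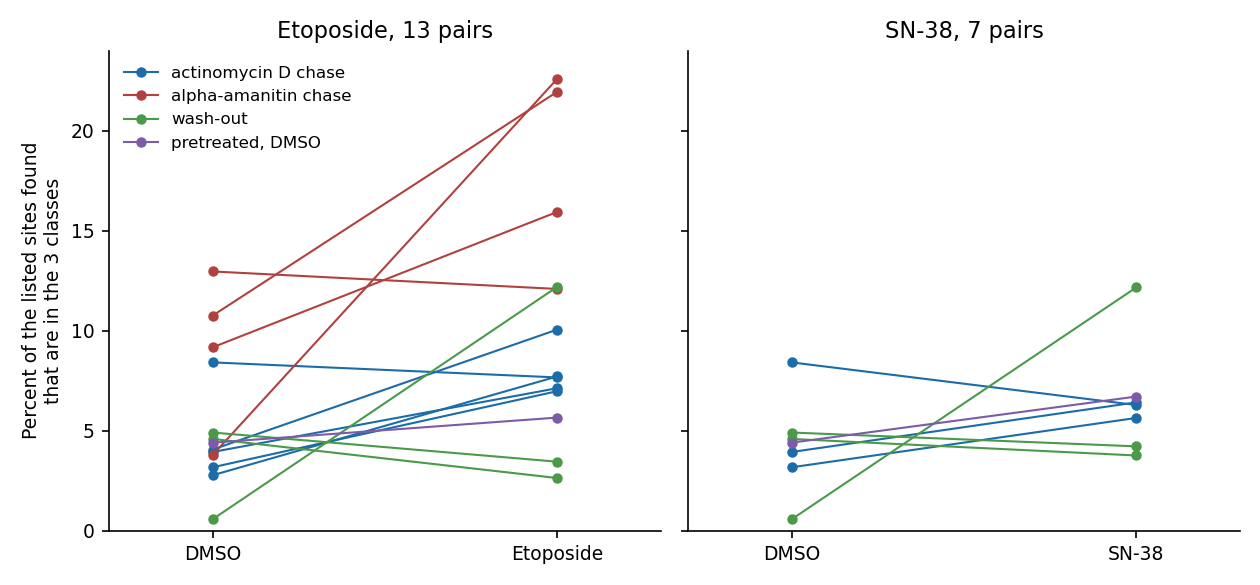
Percent of the listed sites found that are among the 240 sites (y axis) in each DMSO sample and its Etoposide pair (left, 13 pairs) or SN-38 pair (right, 7 pairs), with 1 line per pair, coloured by set of samples. The share is higher with Etoposide in 9 of 13 pairs and with SN-38 in 4 of 7.

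The share also changed with time in culture and under Actinomycin D. In the time course it was lower at 24 h to 48 h than at 6 h and 12 h in all 4 treatments: 0.739 against 2.18 percent in DMSO, 1.62 against 3.36 in Etoposide, 1.6 against 2.53 in Imatinib and 2.1 against 4.35 in Romidepsin. The mean difference was -1.59 points (permutation test within treatment, 22 samples, p = 0.00294, adjusted p = 0.0162). Late samples held 1 to 10 of the sites and early samples 2 to 17, while all listed sites found numbered 263 to 633 late and 102 to 269 early, so the fall in share went with a rise in the other listed sites found. The names of Etoposide and Romidepsin time course samples conflict between the list and other records of the study, and the comparison within each name was lower in both.
Under Actinomycin D the share rose by 0.518 points per hour (slope within first treatment, 19 samples, permutation p = 0.00161, adjusted p = 0.0162), and the slope was positive in all 5 first treatments, from 0.0873 after SN-38 to 0.830 after DMSO. After DMSO the share was 3.17 percent at the start, 2.77 at 1 h, 3.93 at 2 h, 4.05 at 4 h and 8.42 at 6 h. All listed sites found fell from 284 to 202 between the start and 6 h in these samples. With only levels above 0.2 counted as found, the slope was 0.439 and no longer passed (permutation p = 0.0689).
Under Alpha Amanitin the slope was 0.0903 points per hour (8 samples, exact permutation p = 0.924, adjusted p = 0.924), at 1.46 after DMSO and -1.28 after Etoposide.
Doxycycline and Water differed by -1.50 points ± 4.06 (SD, n = 8 pairs; exact permutation p = 0.383, adjusted p = 0.578), on 0 to 6 sites per sample.

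The median level of the sites found gave no call between conditions in the main tests. Alternatives that passed were an Actinomycin D slope, given below, and the Alpha Amanitin slope without the DMSO sample at its start (0.0329 per hour, exact permutation p = 0.0139, not adjusted). The differences were -0.0542 for late against early culture (19 samples, permutation p = 0.306, adjusted p = 0.562), -0.00625 ± 0.187 (SD, n = 11 pairs) for Etoposide against DMSO (exact permutation p = 0.905, adjusted p = 0.924) and -0.0638 ± 0.0824 (SD, n = 6 pairs) for SN-38 against DMSO (exact permutation p = 0.156, adjusted p = 0.430). With each site's own mean level subtracted, the differences for culture time and Etoposide turned to 0.0520 (permutation p = 0.135) and 0.00954 (exact permutation p = 0.574). The slopes were -0.00421 per hour under Actinomycin D (permutation p = 0.712, adjusted p = 0.870), which turned to 0.0143 per hour and passed with the own means subtracted (permutation p = 0.0149, not adjusted), and 0.0122 per hour under Alpha Amanitin (exact permutation p = 0.420, adjusted p = 0.578). No pair of Doxycycline and Water samples had 3 sites in both, so their levels were not compared.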

How the data were processed

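The study made RNA-seq of K562 cells and derivative lines. Per the labels and methods, the authors aligned reads to GRCh38 with TopHat2 2.1.1 (with Picard 2.0.1 and SAMtools 1.9 also named), called editing in each sample with REDItools, RED-ML and SPRINT, and filtered out known variants, repeats and poorly mappable regions. The deposited list holds editing levels as a fraction, averaged by the authors over the tools that detected the site, for sites seen in 2 or more samples whose highest level exceeded 0.2. Per the paper, unannotated sites outside introns and vlincRNAs also had to be predicted by SPRINT. A level of 0 was read as not found. The list gives no depth, so single levels carry no interval. Of 130 sample columns, 96 were used and 34, of samples outside this series, were not. The authors' element names were kept as given.

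The 240 sites were placed against genes of GENCODE release 44 (the authors used another release), with a limit of 10000 bases past a coding gene end and 5000 bases upstream of a start on the other strand. When both applied, the nearer was taken. Sequences were read from GRCh38 as RNA of the site's strand. Reverse-complement stretches were ungapped and passed through the edited base. Clusters joined sites of the same strand within 100 bases. Tests were two-sided permutation tests over samples, exact where stated and otherwise with 100000 resamples. P-values were adjusted by Benjamini-Hochberg over 5 class comparisons and over 11 condition comparisons, with a threshold of 0.05. Levels were compared in samples with at least 3 sites (at least 2 for Others against intron antisense). Pairs matched the agent, or line, to its control at the same time. The tests were tested on simulated data: without an effect, 2.0 to 6.5 percent of simulated comparisons were called. The Alpha Amanitin slope was called in 42.5 percent of those with a simulated effect, and the others in 88.5 percent or more. The effect was 2 SD for pairs of conditions and for culture time, and 2 SD over 6 h for the slopes. For the class comparisons over samples it was smaller than 2 SD.

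The members, lists and tests were chosen with earlier results of these data known. Sites were named by a rule: every cluster of at least 5 sites, the 3 most recurrent sites of each element name, the 3 highest and 3 lowest median levels among sites found in at least 10 samples, sites from Sanger sequencing only, the 5 genes with most antisense sites, and the 5 genes whose ends lie nearest upstream of most "Others" sites, with ties broken by position. One item that this rule names is not reported here. SMAP2, SPCS2, HYLS1, PPM1F, SLC25A53 and the genes with 1 site upstream were named after their values were seen, as were the limits of distance and the score of the stretches. Alternatives were means, 1 site per cluster, higher level limits, at least 2 methods, annotated sites only, leaving out samples, pairs or lines, and, chosen after seeing the data, leaving out the sites upstream of BCR and values within each set of pairs. Python 3.11.15, NumPy 2.4.6, SciPy 1.17.1 and pysam 0.24.0 were used.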

Additional observations from a re-analysis of the deposited data

Results flagged for a closer look

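The share of the listed sites found that belonged to the 240 sites moved in opposite directions with Doxycycline in both engineered lines with more than 1 pair. In the AsiSI line it was higher with Doxycycline than with Water, by 0.775 percentage points at 13 days and 1.72 points at 4 days. In the MRE11A knockdown line it was lower, with differences of -2.32 points at 5 days and -9.83 points at 8 days. The difference between the lines was not tested. These samples held 0 to 6 of the sites.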

How the results depend on the processing

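The differences from vlincRNA sites (-0.0858 to -0.0392), from lncRNA intron sites (-0.190 to -0.0813) and between Others and intron antisense sites (0.0551 to 0.0913) kept their direction and their side of the threshold under the 5 alternatives run for each. Leaving out the sites upstream of BCR was not among these 5, so how far these differences rest on that locus is not known. The difference in level from the rest of the list was 0.0204 with means, 0.0148 with 1 site per cluster and 0.0101 with levels above 0.1. The difference in recurrence passed with annotated sites (-1.31 points), at least 2 methods (-1.50) and without the sites upstream of BCR (-1.44). With 1 site per cluster, the share under Etoposide differed by 3.02 points and did not pass, the Alpha Amanitin slope was -0.317, and the level difference with time in culture was 0.0570 and the level slope under Alpha Amanitin -0.00852, the opposite direction in these last 3. With only levels above 0.2 counted as found, the Actinomycin D slope was 0.439 and did not pass. With each site's own mean subtracted, levels turned direction with time in culture (0.0520), under Actinomycin D (0.0143 per hour, permutation p = 0.0149) and with Etoposide (0.00954). The cause was not tested in any of these. A window of 500 bases gave 52 sites with a stretch. Leaving out each pair, sample or first treatment in turn gave ranges of share from -1.92 to -1.27 for late against early culture, 0.412 to 0.615 for Actinomycin D, 3.65 to 5.38 for Etoposide, 0.601 to 2.89 for SN-38, -2.14 to -0.313 for Doxycycline and -1.28 to 1.46 for Alpha Amanitin. The ranges of level were -0.0734 to -0.0257 with time in culture, -0.0154 to 0.00594 for Actinomycin D, -0.00656 to 0.0329 for Alpha Amanitin, -0.0286 to 0.0268 for Etoposide and -0.0956 to -0.0507 for SN-38. The level slope under Alpha Amanitin passed without the DMSO sample at its start (0.0329, exact permutation p = 0.0139). The Alpha Amanitin slope of the share turned without the DMSO sample at the start (-0.640), without that at 6 h (-0.414), without the Etoposide sample at 4 h (-0.0379) and without all DMSO samples (-1.28). The level under Actinomycin D turned without the DMSO samples (0.00594), that under Alpha Amanitin without the Etoposide samples (-0.00656), and that of Etoposide without the pairs at the start (0.0251) or at 1 h (0.0268) of Actinomycin D or at the start of Alpha Amanitin (0.00634). The Doxycycline share was -0.313 without the MRE11A pair at 8 days. No paired analysis was possible because the groups compared share fewer than 2 replicate numbers in the labels. The pairs of samples above were matched by agent and time, not by replicate number. Read depth was not given, so a site not found may be unedited or not covered.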
